A study of Mus musculus with 8 samples.

Results

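The genes described here encode the machinery of mitosis, the step in which a cell separates its copied chromosomes and divides. The list holds 45 genes chosen by the known function of their products, with earlier results of these data known. Of the 45, 42 had a probe set in the platform annotation, out of 12394 genes in all. Ccnb1, Cdca8 and Espl1 are not in the annotation used here and were not analysed here. Each gene is represented by the probe set with the highest mean over the arrays, and 22 of the 42 genes have several probe sets. Of the 42, 38 exceeded the median of all values on at least 1 array, 10 did so on all 8 arrays, and Cenpe, the kinesin that carries chromosomes to the spindle equator, stayed at the floor throughout.

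Macrophages were grown from bone marrow of C57BL/6 mice, wild type or Cd14-/-, aged 6 to 8 weeks, over 7 days in medium with 10% serum and M-CSF, a growth factor that keeps macrophage precursors dividing and alive. CD14 is a surface protein that passes lipopolysaccharide (LPS), a component of bacterial outer membranes, to its receptor. LPS was used at 1 µg/ml, and cells of both genotypes were taken without it and 6 h or 24 h into it, and further wild-type cells after 6 h or 24 h with LPS and EGTA, a chelator of extracellular calcium (2 mM on the 24 h label, no concentration on the 6 h label). The design text sets these groups side by side to separate effects of calcium flux from other effects of CD14 loss. Each of the 8 groups is 1 array, so a difference between a pair of arrays has no replicate check and no p-value, and the labels do not say how many mice a culture came from. Unstimulated cells were harvested 24 h after plating, whereas the 6 h cells were harvested 6 h after LPS was given to freshly plated cells as the labels describe it, so in comparisons of 6 h with 0 h or with 24 h the duration of LPS and the time after plating cannot be told apart. The labels name M-CSF for the 7 days of growth and do not say whether it was present after plating. No array held EGTA without LPS.

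Entry into mitosis is driven by the kinase CDK1 bound to cyclins A and B, helped by polo and Aurora kinases. Kinetochore proteins join chromosomes to spindle microtubules, checkpoint proteins hold the anaphase-promoting complex (APC/C) until all are attached, and CDC20 then switches that complex on. Most of these genes are transcribed late in the cell cycle, switched on by MuvB complexes with B-MYB and FOXM1 and held down outside the cycle by the DREAM complex, which recognises a short promoter element called the cell cycle genes homology region (CHR), often near CCAAT boxes bound by NF-Y. Macrophages grown in M-CSF divide, and LPS is known to arrest them.

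The promoters of the genes that carry the pattern are shown first, for later reference. RefSeq promoter windows of assembly GRCm38.p6, from 250 bases before to 50 after the transcription start, were matched by symbol for 34 of the 42 genes. Below are 120 bases, from 100 before to 20 after the start, read 5′ to 3′ on the gene's own strand. Capitals mark the CHR letters TTTGAA or TTTAAA and the letters CCAAT, on either strand, so that TTCAAA and ATTGG are the same elements on the other strand. Ccnb2 (chr9:70421535-70421654, minus strand), Cdk1 (chr10:69352893-69353012, minus), Cdc20 (chr4:118437324-118437443, minus), Ube2c (chr2:164769829-164769948, plus) and Top2a (chr11:99024170-99024289, minus) were lower at 24 h in every condition and hold a CHR with CCAAT boxes. Bub1 (chr2:127831840-127831959, minus) was among the genes with the largest differences and holds CCAAT boxes with no CHR letters. Plk4 (chr3:40799851-40799970, plus) and Psrc1 (chr3:108383704-108383823, plus) departed from the common pattern.
Ccnb2: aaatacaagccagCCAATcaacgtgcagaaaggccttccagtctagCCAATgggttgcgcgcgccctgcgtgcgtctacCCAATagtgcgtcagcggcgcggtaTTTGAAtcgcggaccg
Cdk1: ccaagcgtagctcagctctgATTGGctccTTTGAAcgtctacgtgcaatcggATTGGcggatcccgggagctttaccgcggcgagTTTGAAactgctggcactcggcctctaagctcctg
Cdc20: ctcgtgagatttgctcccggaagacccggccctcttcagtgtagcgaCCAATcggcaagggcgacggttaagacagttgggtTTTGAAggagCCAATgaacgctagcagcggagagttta
Ube2c: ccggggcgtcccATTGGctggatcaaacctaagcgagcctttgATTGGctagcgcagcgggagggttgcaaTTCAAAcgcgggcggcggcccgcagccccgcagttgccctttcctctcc
Top2a: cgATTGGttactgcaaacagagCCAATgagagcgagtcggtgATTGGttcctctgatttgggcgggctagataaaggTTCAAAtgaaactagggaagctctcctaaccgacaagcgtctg
Bub1: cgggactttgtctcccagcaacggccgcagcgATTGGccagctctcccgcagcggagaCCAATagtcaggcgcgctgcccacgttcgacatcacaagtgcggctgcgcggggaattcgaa
Plk4: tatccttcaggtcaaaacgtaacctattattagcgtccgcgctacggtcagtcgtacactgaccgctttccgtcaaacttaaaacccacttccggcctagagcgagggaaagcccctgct
Psrc1: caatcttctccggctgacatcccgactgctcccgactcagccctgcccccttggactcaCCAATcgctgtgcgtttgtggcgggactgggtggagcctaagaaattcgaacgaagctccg

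Intensities below are MAS5 values after quantile normalisation over the 8 arrays, on a linear scale, with values under 38.4 raised to that floor. A gene was compared between a pair of arrays where the brighter exceeded 88.2, the median of all values, and a difference of at least 2-fold was counted. A fold against a value at the floor is given as "at least". Levels of different genes come from different probe sets and were not ranked against each other. Before scaling, the 2% trimmed means of the arrays ran from 314 to 527, and RNA integrity numbers from 9.3 to 9.7. Cd14 was at the floor on all 3 Cd14-/- arrays and between 3849 and 12515 on the wild-type arrays. Of 10 macrophage markers 9 were measured, Cd14 was the only one of them at the floor on any array, and their summed intensity ran from 56768 to 68258. That sum includes Cd14 itself. It was lowest in Cd14-/- cells at 6 h, with Cd14 at the floor, and highest in wild-type cells at 6 h, with Cd14 at 12515.

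Across the 8 arrays, the mitosis and spindle genes were highest in unstimulated Cd14-/- cells and low on all 3 arrays taken after 24 h of LPS. Their median intensity in wild-type cells was 194 before LPS, 188 at 6 h and 63.1 at 24 h. With EGTA it was 178 at 6 h and 60.7 at 24 h. In Cd14-/- cells it was 337 before LPS, 254 at 6 h and 47.6 at 24 h. The 3 arrays of 24 h thus lay well below the 5 of 0 h and 6 h, with no overlap. Of the 41 genes above the floor on some array, 33 had their highest value in unstimulated Cd14-/- cells. The number of genes at the floor was 11 for wild type, 15 with EGTA and 15 for Cd14-/- at 24 h, against 1 or 2 on the other arrays. In RNA from whole cultures, fewer dividing cells and less of these RNAs per cell cannot be told apart.

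**Figure D1:**
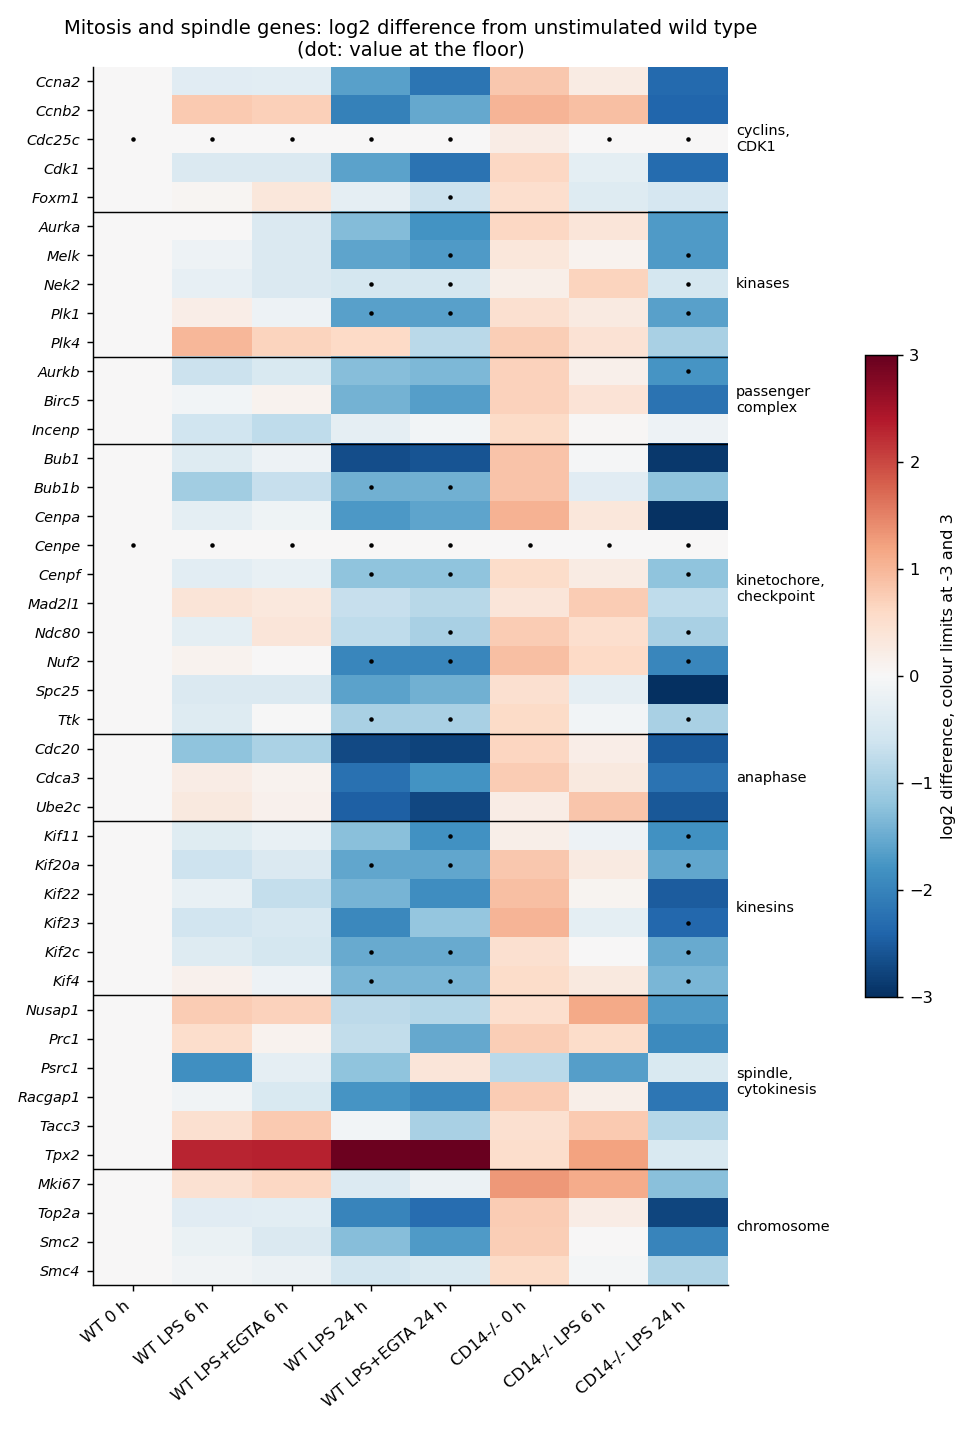
Log2 difference of each of the 42 mitosis and spindle genes (rows, grouped by role) from unstimulated wild-type cells on each of the 8 arrays (columns), on a colour scale limited at -3 and 3, with a dot where the value is at the floor. The 3 columns of 24 h are blue for most genes, the column of unstimulated Cd14-/- cells is light red for most, and Tpx2 is dark red on the 4 wild-type arrays with LPS.

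In wild-type cells after 24 h of LPS, 38 of the 42 genes were lower than before LPS, 2 were higher (Tpx2 and Plk4) and 2 were at the floor on both arrays. Of all 12394 genes, 4266 were lower and 3751 higher. With no filter, the median log2 difference was -1.34 over the 42 and 0.0 over the 12394. Of 36 of the 42 that could be compared, 27 differed by 2-fold or more downward and 1 upward. Of 6965 genes compared over the whole array, 10.7% were lower and 10.6% higher. The median was -1.44 over the 36 and -0.07 over the 6965. Of these 36, 18 exceeded the median of all values on both arrays and 18 on 1 array only. Among the former, 9 were at least 2-fold lower and 1 higher. With the brighter array above the 60th percentile, 22 genes were compared, of which 15 were lower and 1 higher by that measure. Counts under these stricter filters, here and below, were not made over all genes, so they have no background beside them.

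Most of this difference lay between 6 h and 24 h. At 6 h in wild-type cells, 15 of the 42 genes were higher and 25 lower than at 0 h, with a median of -0.18. Of all 12394 genes, 3427 were higher and 4533 lower. Only 1 of 36 of the 42 compared was at least 2-fold higher and 3 lower, against 10.5% higher and 9.5% lower of all genes compared. Between 6 h and 24 h, which also differ in time after plating, 23 of 30 compared were at least 2-fold lower and 0 higher, against 5.56% lower and 5.5% higher of all genes. Of these 30, 12 passed the filter through 1 array only, and of the 18 above the median of all values on both arrays 12 were lower. With EGTA the same interval gave 26 of 33 lower and 0 higher, against 6.14% and 5.6%, with 15 of the 33 passing through 1 array only and 13 of the other 18 lower. With the deposited intensities 16 of 26 compared were lower there and 3 higher, where the median over all genes was 0.47. In Cd14-/- cells the interval gave 33 of 36 lower and 1 higher, which was Psrc1, against 6.16% and 4.32%. There 26 of the 36 passed through 1 array only, and of the other 10 genes 8 were lower and 0 higher.

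Limma's additive fit over all 8 arrays, with terms for LPS time and for condition, tested 38 of the 42 genes among 7292. Its 3 residual degrees of freedom measure how far the arrays depart from additivity over the times and not the spread between cultures. At 24 h 32 of the 38 fell and 0 rose, at a Benjamini-Hochberg adjusted p under 0.05, where 14.2% of all genes tested fell and 12.5% rose. The 6 that did not pass were Incenp, Mki67, Plk4, Psrc1, Tacc3 and Tpx2. A gene entered the fit if it exceeded the median of all values on any array, so a high value at 0 h sufficed. Entry in that way favours a fall at 24 h. On the arrays of 24 h, 18 of the 42 exceeded that median in wild type, 18 with EGTA and 11 in Cd14-/- cells. Of the 10 above it on all 8 arrays, Cdk1, Mad2l1, Smc2, Smc4, Top2a and Ube2c fell. The others, Incenp, Mki67, Plk4 and Tpx2, did not pass. At 6 h 2 of the 38 fell, Bub1b and Psrc1, and 0 rose, against 15.0% down and 12.5% up of all genes. Without the unstimulated Cd14-/- array 18 fell at 24 h in place of 32, and without the Cd14-/- array of 24 h, 8 fell and 2 rose at 6 h. Values at the floor on several arrays make residuals small, and with no floor 30 fell at 24 h.

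Among cyclins and their partner kinase, all 3 genes tested fell at 24 h. Ccnb2, a B-type cyclin, had an intensity in wild-type cells of 341 before LPS, 586 at 6 h and 84.4 at 24 h. With EGTA it stood at 563 and 118 at 6 h and 24 h, and in Cd14-/- cells at 696, 643 and 65.4 at 0, 6 and 24 h. It was 1.72-fold higher at 6 h and 4.05-fold lower at 24 h in wild type, and 10.7-fold lower at 24 h in Cd14-/- cells, and the 3 arrays of 24 h were the lowest. Ccna2, the cyclin of S phase and early mitosis, was at 431, 342 and 141 in wild type, at 348 and 94.3 with EGTA and at 758, 515 and 86.3 in Cd14-/- cells, in the same order of times. Cdk1, the mitotic kinase itself, was at 858, 635 and 282 in wild type, at 634 and 186 with EGTA and at 1317, 705 and 173 in Cd14-/- cells. For both, values stepped down from 0 h through 6 h to 24 h in each genotype, and the 3 arrays of 24 h did not overlap with the others. The fit gave Cdk1 a change of -2.29 ± 0.30 (SE) on the log2 scale at 24 h (limma, adjusted p = 0.00602). Foxm1, a transcription factor that switches on late cell cycle genes, was dim, between the floor and 85.1 on all arrays. Cdc25c, a phosphatase that activates CDK1, was above the floor only in unstimulated Cd14-/- cells, at 44.7, and neither was compared.

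Of the mitotic kinases, Aurka, Melk and Plk1 fell at 24 h. Plk1, the polo kinase that acts through most of mitosis, was at 118 and 135 in wild type at 0 h and 6 h, at 106 with EGTA at 6 h, and at 164 and 143 in Cd14-/- cells. It was at the floor on all 3 arrays of 24 h, which is at least 3.08-fold lower in wild type and at least 4.27-fold lower in Cd14-/- cells. Aurka, the Aurora kinase of the spindle poles, was at 156, 156 and 62.8 in wild type, at 116 and 44.9 with EGTA, and at 241, 201 and 47.7 in Cd14-/- cells. The 2 wild-type values before 24 h were 1.01-fold apart, and the 3 arrays of 24 h were the lowest. Melk, a kinase most abundant in dividing cells, was at 124, 111 and 41.4 in wild type, at 91.9 and the floor with EGTA, and at 157, 133 and the floor in Cd14-/- cells. Nek2, a kinase of centrosome separation, reached only 87.0, in Cd14-/- cells at 6 h, and was not compared.

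The chromosomal passenger complex, which corrects faulty chromosome attachment and guides the cleavage of the cell, was split. Aurkb, its kinase, was at 131, 84.3 and 54.5 in wild type at 0, 6 and 24 h, at 96.1 and 51.2 with EGTA at 6 h and 24 h, and at 212, 147 and the floor in Cd14-/- cells. Birc5, which encodes survivin, was at 302, 285 and 112 in wild type, at 324 and 96.7 with EGTA and at 490.3, 400.1 and 64.5 in Cd14-/- cells. Both fell at 24 h in the fit, Birc5 by 2.13 ± 0.35 (SE) on the log2 scale (limma, adjusted p = 0.0109). Incenp, the scaffold of the complex, was at 807, 531 and 668 in wild type, at 473 and 756 with EGTA and at 1206, 823 and 726 in Cd14-/- cells. It did not pass at 24 h (limma, log2 change -0.40 ± 0.22 SE, adjusted p = 0.211), and with EGTA it was 0.68 higher on the log2 scale at 24 h than at 6 h.

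All 9 kinetochore and spindle checkpoint genes tested fell at 24 h. All but Mad2l1 were at or below the median of all values on at least 1 array. Bub1, a checkpoint kinase of the kinetochore, was at 306, 236 and 48.1 in wild type, at 274 and 50.7 with EGTA and at 552, 299 and 41 in Cd14-/- cells. The 24 h values were 6.36-fold lower than at 0 h in wild type and 13.5-fold lower in Cd14-/- cells, and the fitted change was -3.18 ± 0.25 (SE) on the log2 scale (limma, adjusted p = 0.00245). Cenpa, the histone that marks centromeres, was at 464, 380 and 141 in wild type, at 427 and 154 with EGTA and at 963, 587 and 59.7 in Cd14-/- cells. It was 16.1-fold lower at 24 h than at 0 h in Cd14-/- cells. Nuf2, a subunit of the NDC80 complex that grips microtubules, was at 149 and 160 in wild type at 0 h and 6 h, at 151 with EGTA at 6 h and at 277 and 226 in Cd14-/- cells, and at the floor on all 3 arrays of 24 h. Spc25, of the same complex, was 3.05-fold lower at 24 h in wild type and 11-fold lower in Cd14-/- cells. Bub1b, which encodes the checkpoint protein BUBR1, was already 2.06-fold lower at 6 h in wild type and 2.30-fold lower in Cd14-/- cells, and fell by 1.10 on the log2 scale at 6 h in the fit (limma, adjusted p = 0.00989). Mad2l1, which encodes the checkpoint protein MAD2, had the smallest change that passed in this group, at -0.89 ± 0.16 (SE) at 24 h (limma, adjusted p = 0.0153).

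The genes of anaphase onset gave some of the largest differences. Cdc20, the activator of the APC/C, was at 274, 118 and 42.2 in wild type, at 143 and 39.9 with EGTA and at 432, 313 and 47.6 in Cd14-/- cells. At 24 h it was 6.5-fold lower in wild type, close to the floor, and at 6 h it was already 2.32-fold lower there but 1.38-fold lower in Cd14-/- cells. A dimmer Cdc20 probe set went from 154 at 0 h to 39.7 at 24 h in wild type, and the remaining one was at the floor on every array. Ube2c, the ubiquitin-conjugating enzyme of the APC/C, was at 708, 874 and 130 in wild type, at 780 and 107 with EGTA and at 826, 1253 and 121 in Cd14-/- cells. It was thus higher at 6 h than at 0 h in both genotypes and low on every array of 24 h, 5.46-fold lower in wild type and 6.83-fold lower in Cd14-/- cells. Cdca3, which helps degrade an inhibitor of mitotic entry, was at 261, 302 and 55.5 in wild type, at 282 and 75.2 with EGTA and at 446, 322 and 56.3 in Cd14-/- cells. All 3 fell at 24 h, and the fitted log2 change of Ube2c was -2.58 ± 0.18 (SE; limma, adjusted p = 0.00219).

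The 6 kinesins, motor proteins that move along microtubules, all fell at 24 h. Each was at or below the median of all values on at least 1 array. Kif23, a motor of the central spindle, was at 196, 132 and 51.6 in wild type, at 141 and 87.0 with EGTA, and at 397, 159 and the floor in Cd14-/- cells. Kif20a, which acts in the final cleavage, was at 113 and 73.7 in wild type at 0 h and 6 h, at 83.1 with EGTA at 6 h and at 196 and 137 in Cd14-/- cells, and at the floor on the 3 arrays of 24 h. Kif2c, which takes microtubules apart at centromeres, was at 110.0 and 83.5 in wild type, at 76.1 with EGTA and at 153 and 111 in Cd14-/- cells at those times, and likewise at the floor at 24 h. For Kif20a and Kif2c the size of the change at 24 h is therefore a bound, at least 2.94-fold and at least 2.87-fold in wild type. Kif11, the motor that pushes spindle poles apart, Kif22, which pushes chromosome arms outward, and Kif4, a chromosome-bound motor, were 2.40-fold, 2.62-fold and at least 2.57-fold lower in wild type at 24 h.

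The proteins of spindle assembly and cytokinesis held the exceptions. Racgap1, which with the Kif23 product forms the centralspindlin complex, followed the common course, at 239, 221 and 70.4 in wild type, at 174 and 62.9 with EGTA and at 406, 270.3 and 53.2 in Cd14-/- cells. Nusap1, a microtubule-binding protein, and Prc1, which bundles the central spindle, also fell at 24 h (limma, adjusted p = 0.0374 and 0.0332). At 6 h both were higher than at 0 h in wild type, 1.68-fold for Nusap1 and 1.45-fold for Prc1. Tacc3, a protein of the spindle fibres, was at 108, 151 and 102 in wild type and at 186 and 55.2 with EGTA at 6 h and 24 h. In Cd14-/- cells it was at 151, 186 and 59.1, and it did not pass at 24 h (limma, adjusted p = 0.116).

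Tpx2, which nucleates spindle microtubules and activates Aurora A, ran the other way in wild-type cells. Its intensity was 259 before LPS, 1268 at 6 h and 1982 at 24 h, and with EGTA 1279 and 2021. In Cd14-/- cells it was 376 before LPS, 594 at 6 h and 188 at 24 h. The 4 wild-type arrays with LPS were the highest by a wide margin, 4.89-fold and 7.65-fold above 0 h without EGTA, while Cd14-/- cells were 1.58-fold higher at 6 h and 2.00-fold lower at 24 h. A second, dimmer Tpx2 probe set gave 52.1, 190 and 176 in wild type, 239 and 245 with EGTA and 66.5, 91.5 and the floor in Cd14-/- cells. Against 0 h its directions were the same, but between 6 h and 24 h in wild type it was slightly lower where the brighter probe set was higher. The fit that assumes one time course for all conditions left Tpx2 a residual SD of 1.21 on the log2 scale, against a median of 0.38 for the 38 genes tested.

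Plk4 and Psrc1 also departed from the rest. Plk4, the kinase that starts centriole duplication, was at 192, 382 and 291 in wild type, at 304 and 110 with EGTA and at 322, 261 and 98.1 in Cd14-/- cells. It was 1.99-fold higher at 6 h and 1.52-fold higher at 24 h in wild type, and 3.28-fold lower at 24 h in Cd14-/- cells. At 24 h the wild-type array without EGTA stood 2.64-fold above that with EGTA and 2.97-fold above Cd14-/-. The other 2 probe sets of Plk4 were in the same order at 24 h, at 144, 83.4 and 60 for one and 89.1, 46.2 and 42 for the other. At 6 h in wild type these 2 were 2.23-fold and 2.8-fold higher than at 0 h. In Cd14-/- cells they went from 120 to 151 and from 88.4 to 96.7 at 6 h, where the probe set used was lower. Psrc1, a regulator of spindle microtubules, was at 145, 40.6 and 63.3 in wild type and at 122 and 188 with EGTA. In Cd14-/- cells it was at 83.2, 46.1 and 106. It was the one gene of the 42 that was lower in Cd14-/- than in wild-type cells before LPS, and the one that was higher in Cd14-/- cells after 24 h of LPS than before.

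**Figure D2:**
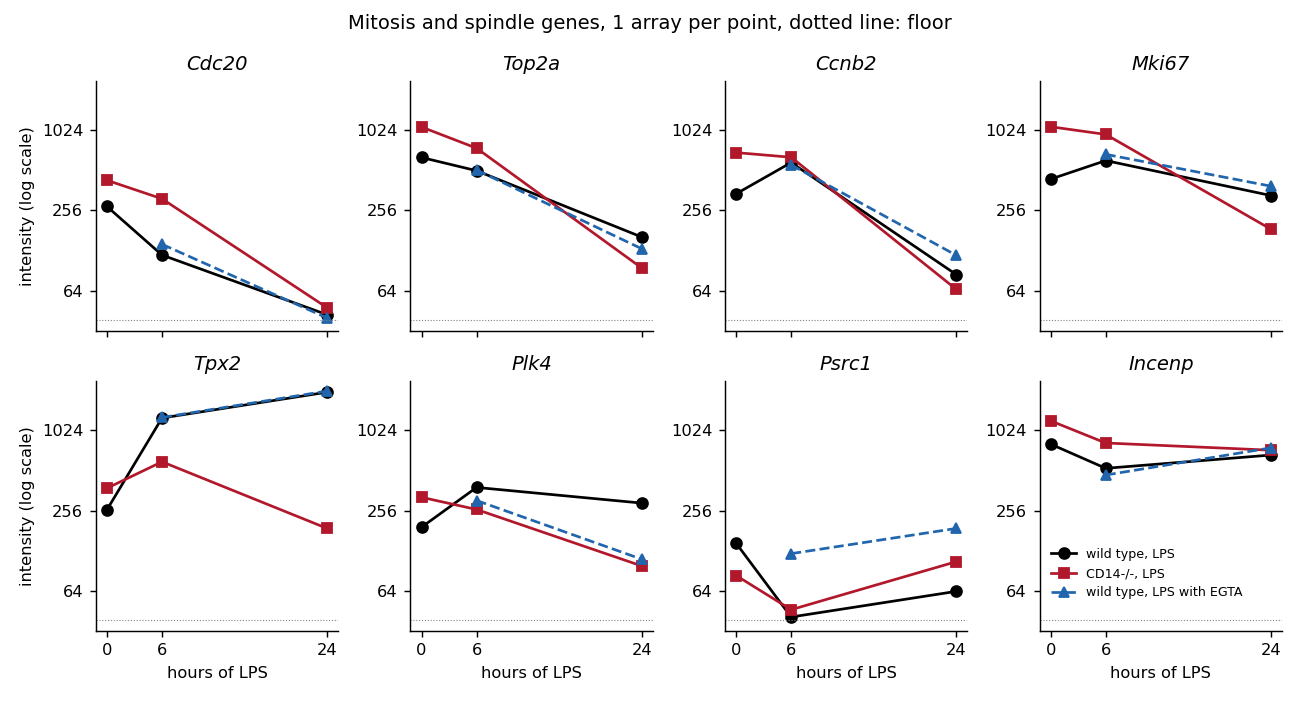
Intensity on a log scale against hours of LPS for 8 genes, with black circles for wild type, red squares for Cd14-/- and blue triangles for wild type with EGTA, 1 array per point, and the floor as a dotted line. Cdc20, Top2a and Ccnb2 end low in all 3 series, Tpx2 climbs to 1982 and 2021 in wild type without and with EGTA and ends at 188 in Cd14-/- cells, and Psrc1 lies highest with EGTA at 6 h and 24 h.

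Genes of chromosome structure followed the common course to different depths. Top2a, the topoisomerase that untangles sister chromosomes, was at 640.4, 509 and 162 in wild type, at 515 and 132 with EGTA and at 1084, 752 and 94.6 in Cd14-/- cells. Smc2, a core subunit of condensin, was at 662, 579.7 and 275 in wild type, at 487 and 205 with EGTA and at 1110.5, 670.4 and 168 in Cd14-/- cells. Smc4, its partner, was at 904, 839 and 620.0 in wild type, at 798 and 656 with EGTA and at 1356, 871 and 486 in Cd14-/- cells. The 24 h differences in wild type were 3.96-fold, 2.41-fold and 1.46-fold, and all 3 fell in the fit, Smc4 by 0.95 ± 0.24 (SE) on the log2 scale (limma, adjusted p = 0.0347). Mki67, which encodes the proliferation marker Ki-67, was at 440.3, 607 and 332 in wild type, at 676 and 389.7 with EGTA and at 1089, 954 and 185 in Cd14-/- cells. It was 1.33-fold lower at 24 h in wild type and 5.88-fold lower in Cd14-/- cells, and did not pass over all conditions (limma, adjusted p = 0.0898).

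Before LPS, Cd14-/- cells had higher levels than wild-type cells for 40 of the 42 genes. Of all 12394 genes, 4122 were higher and 3682 lower. With no filter, the median log2 difference was 0.63 over the 42 and 0.0 over the 12394. The differences were small for single genes of the 42. Of 38 compared, 4 were at least 2-fold higher and 0 lower, with a median of 0.67. Of all genes compared, 1.4% were higher and 3.2% lower, with a median of 0.02. The 4 were Mki67 at 2.47-fold, Cenpa at 2.07-fold, Ccnb2 at 2.04-fold and Kif23 at 2.03-fold, and with the deposited intensities, or with arrays scaled to equal medians, 1 was left in place of 4. After 6 h of LPS 37 of 42 were higher in Cd14-/- cells, 1 of 35 compared at least 2-fold (Cdc20, 2.65-fold) and 1 lower (Tpx2, 2.13-fold), against 2.53% and 3.08% of all genes. Of all 12394 genes, 4067 were higher at that time and 3827 lower.

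After 24 h more genes were lower than higher in Cd14-/- cells. Of the 42 genes, 27 were lower and 5 higher than in wild-type cells, with a median of -0.29, and the other 10 were at the floor in both. Of all 12394 genes, 3916 were lower and 4055 higher, with a median of 0.0. Of 19 of the 42 compared, 6 were at least 2-fold lower and 0 higher, against 6.21% lower and 5.21% higher of all genes. Of the 19, 9 passed the filter through 1 array only, and of the 10 above the median of all values on both arrays 2 were at least 2-fold lower. The 6 were Tpx2 at 10.6-fold, Plk4 at 2.97-fold, Spc25 at 2.61-fold, Cenpa at 2.36-fold, Prc1 at 2.27-fold and Kif22 at 2.15-fold. With the deposited intensities 2 were lower and 1 higher.

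The course over 24 h was thus steeper on the Cd14-/- arrays. The log2 difference between 24 h and 0 h was lower than in wild type for 40 of 42 genes, with a median difference between the genotypes of -0.96. Of the 42, 26 were at least 2-fold lower in both. These counts used no filter on low values and were not made over all genes, so they have no background beside them. Within Cd14-/- cells 36 of 38 compared were at least 2-fold lower at 24 h than at 0 h and 0 higher, against 8.77% and 8.29% of all genes, with a median of -2.27 over all 42. Of these 38, 10 exceeded the median of all values on both arrays, 9 of which were at least 2-fold lower. At 6 h 2 of 37 were at least 2-fold lower (Bub1b and Kif23) and 0 higher, against 8.99% and 10.3%. With the deposited intensities that count was 10. The floor bounds the differences of dim genes at 24 h in both genotypes, and the difference in course was not tested.

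Averaged over the times, the condition terms of the fit called none of the genes. For CD14 deficiency 0 of 38 passed in limma at an adjusted p under 0.05, against 0.0686% up and 0.384% down of all genes. At an unadjusted p under 0.05 in limma 3 of 38 passed, against 1371 of all 7292 genes tested. Most of the genes were higher in Cd14-/- cells before LPS, and more were lower than higher at 24 h. The term averages over these times. Without the Cd14-/- array of 24 h its median effect was 0.48, against 0.02 for all genes, and it still called 0 of 38. Whether the averaging accounts for the counts was not tested.

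**Figure D3:**
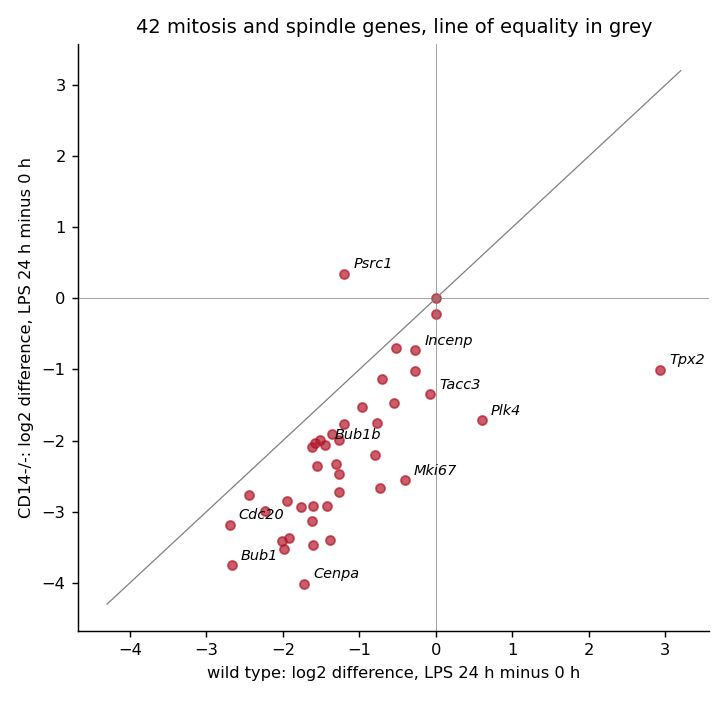
Log2 difference between 24 h of LPS and 0 h in wild type (horizontal) against that in Cd14-/- cells (vertical), 1 point per gene for the 42 mitosis and spindle genes, with the line of equality in grey. Of the points, 40 lie below the line, Psrc1 lies above it, and Tpx2 stands at the right, at 2.94 in wild type and -1.0 in Cd14-/- cells.

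EGTA left most of the genes that could be compared close to their level with LPS alone. At 6 h 20 of 42 were higher and 20 lower with EGTA, and 1 of 33 compared was at least 2-fold higher and 0 lower, against 0.549% and 0.267% of all genes. At 24 h 11 were higher and 20 lower, and 1 of 20 compared was at least 2-fold higher and 1 lower, against 1.02% and 1.11%. Of all 12394 genes, 4038 were higher and 3860 lower at 6 h, and 4024 higher and 3951 lower at 24 h. The remaining 11 of the 42 genes were at the floor on both arrays of 24 h, and 22 of the 42 were too dim to be compared there. The gene higher at both times was Psrc1, 3.00-fold at 6 h and 2.97-fold at 24 h, and the gene lower at 24 h was Plk4. A second Psrc1 probe set was at 88.3 before LPS and at the floor at 6 h and 24 h in wild type, and at 109 and 125 with EGTA, while the third was at the floor on every array. Mean values over the probe sets left 0 genes at 6 h. Limma's EGTA term called 0 of 38 genes at an adjusted p under 0.05, and 0.0% of all genes in either direction. At an unadjusted p under 0.05 in limma it called 1 of 38, against 415 of all 7292 genes tested. With the deposited intensities the EGTA array of 6 h was dimmer as a whole, by a median of -0.78 over all genes, and 9 of the 42 genes were then at least 2-fold lower and 0 higher. At 24 h the median over the genes compared was -0.18, and 0.04 with the deposited intensities.

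Other genes of the cell cycle were taken from further lists by function. Of 56 other mitosis genes measured, 41 were compared at 24 h in wild type, with a median of -0.87. Of these 41, 18 were at least 2-fold lower and 1 higher, against 10.7% and 10.6% of all genes. In Cd14-/- cells 34 of 45 were lower and 1 higher, against 8.77% and 8.29%. In the fit 30 of 48 fell at 24 h and 2 rose, against 14.2% and 12.5%. The 5 with the largest differences were all lower. Anln, an actin-binding protein of the cleavage furrow, was at 247, 138 and 44.8 in wild type and at 500.5, 196 and the floor in Cd14-/- cells. Cks1b, a small subunit bound to cyclin-dependent kinases, was at 1346, 1196 and 271 in wild type and at 2385, 1715 and 400.2 in Cd14-/- cells. Hmmr, a spindle-pole protein, Pbk, a mitotic kinase, and Cep55, of the final cut between daughter cells, stood at 226, 412 and 237 at 0 h and at the floor, 87.0 and 56.2 at 24 h in wild type. The 18 subunits of the APC/C and of cohesin that cells make throughout the cycle had 0 genes at least 2-fold higher or lower at 24 h in either genotype, and medians of -0.03 in wild type and -0.21 in Cd14-/- cells.

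DNA replication genes, used in S phase before mitosis, were in part lower by 6 h already. At 6 h 13 of 38 compared were at least 2-fold lower and 2 higher in wild type, against 9.5% and 10.5% of all genes. In Cd14-/- cells 29 of 39 were lower and 0 higher, against 8.99% and 10.3%. The medians of the replication genes were -0.72 and -1.37. The mitosis and spindle genes had 3 of 36 and 2 of 37 lower at that time, as given above. In the fit 19 of 39 replication genes fell at 6 h and 27 at 24 h, and 0 rose at either. Of all genes tested, 15.0% fell at 6 h and 14.2% at 24 h, and 12.5% rose at each. The median intensity of the replication genes was 296, 189 and 161 in wild type, 168 and 121 with EGTA, and 428, 175 and 114 in Cd14-/- cells. Rrm2, the regulated subunit of ribonucleotide reductase, was at 777, 217 and 111 in wild type and at 1716, 267 and the floor in Cd14-/- cells. Dut, which clears dUTP, was at 241, 99.4 and 47.4 in wild type and at 398, 85.2 and 65.8 in Cd14-/- cells, and Tk1, thymidine kinase, at 220.2, 159 and 50.2 and at 428, 166 and 47.5. The difference in timing between the 2 lists was not tested.

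**Figure D4:**
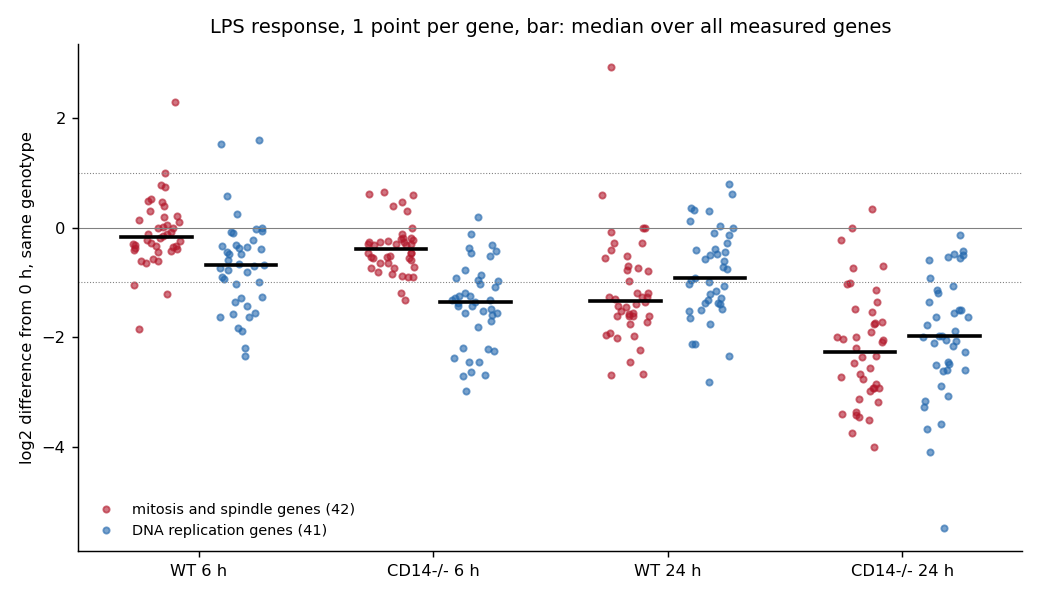
Log2 difference from 0 h of the same genotype after 6 h and 24 h of LPS, 1 point per gene, for the 42 mitosis and spindle genes (red) and 41 DNA replication genes (blue), with a bar at the median of each and dotted lines at 2-fold. At 6 h the red bars lie at -0.18 and -0.39 in wild type and Cd14-/- cells, and at 24 h at -1.34 and -2.27.

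Regulators of the cycle were measured on the same arrays. Cdkn1a, which encodes the CDK inhibitor p21, was at 5493, 6395 and 3597 in wild type, at 7394 and 6067 with EGTA and at 2786, 7614 and 6061 in Cd14-/- cells. It was lowest in unstimulated Cd14-/- cells, where the mitosis and spindle genes were highest, and next lowest in wild-type cells at 24 h, where they were low. Rbl1, which encodes p107, a pocket protein that can take part in the DREAM complex, was at 457, 2338 and 1496 in wild type, at 2251 and 1042 with EGTA and at 656, 1176 and 431 in Cd14-/- cells. The 4 wild-type arrays with LPS ran from 1042 to 2338, and of the Cd14-/- arrays the one of 6 h reached that range. E2f1, an activator of S-phase genes, was at 312, 159 and 360.5 in wild type and at 466, 186 and 369 in Cd14-/- cells, lowest at 6 h. E2f8, a repressor of the E2F family, was at 144, 74.5 and 64.2 in wild type and at 266, 66.9 and the floor in Cd14-/- cells. E2f7 was not analysed here.

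The promoter letters were then counted in the 34 windows of 300 bases. Each motif was searched on both strands and counted once per gene, and matches of different motifs may overlap. TTTGAA was in 23 of the 34 windows (67.6%), against 18.1% of 27025 mouse genes with a window and 13.0% of the 9888 that are on the array. The other CHR form, TTTAAA, was in 26.5%, against 13.2% and 10.0%. CCAAT was in 73.5%, against 37.9% and 38.1%, and 17 windows (50.0%) held it at least 2 times, against 12.2% and 14.0%. Most CHR matches lay close to the start, and within 100 bases before to 50 after it TTTGAA was in 64.7% of the windows, against 8.1% and 5.1%. Any of the E2F words TTTCCCGC, TTTGGCGC, TTTGCCGC and TTTCGCGC was in 1 window (2.9%), that of Cdk1, against 2.3% and 3.6%. These are matches of letters and not measured binding sites.

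In the printed promoters counting the start as position 0, TTTGAA begins at -18 in Cdc20, at -71 and -15 in Cdk1 and at 4 in Ccnb2. Ube2c and Top2a hold it as TTCAAA, at -29 and -23. The 23 genes with TTTGAA had a median log2 difference at 24 h of -1.52 in wild type, 19 of them at least 2-fold lower, and of -2.72 in Cd14-/- cells, where all 23 were. The 11 genes with a window and without it had medians of -0.80 and -1.71, with 5 and 8 at least 2-fold lower. These counts used no filter on low values. The genes of the 11 that were not at least 2-fold lower in Cd14-/- cells were Cenpe, Nek2 and Psrc1. Cenpe was at the floor on every array, and Nek2 was too dim to be compared. Among the 23, Ndc80 and Ttk were too dim to be compared in wild type. Mki67 and Prc1, also among the 23, were compared there and were only 1.33-fold and 1.67-fold lower. Bub1 is among the 11 and was 6.36-fold lower in wild type. So are Plk4, whose one CHR match is TTTAAA at -135, and Psrc1, with CCAAT at -41. This comparison of gene sets is a description and was not tested.

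Markers of other cells that marrow cultures can hold were mostly at the floor. All 5 T and NK cell markers measured, 4 of 5 B cell, 3 of 4 erythroid, 5 of 6 dendritic cell, 4 of 7 stromal and 5 of 9 neutrophil markers were at the floor on all 8 arrays. Of 7 blood progenitor markers 5 were, and their summed intensity ran from 295 to 401 before 24 h and from 269 to 303 at 24 h. Kit, the stem cell factor receptor, named here after its values were seen, was at 171, 84.9 and the floor in wild type, at 64.6 and the floor with EGTA and at 142, 66.7 and the floor in Cd14-/- cells. It was low on the same 3 arrays as the mitosis and spindle genes. Gata2, the other progenitor marker above the floor on some array, went the other way in wild type, at the floor, 49.6 and 72.4, with the floor and 65.8 under EGTA, and stayed at the floor in Cd14-/- cells. S100a8, a neutrophil and monocyte gene, was higher on the 3 arrays of 24 h, at 432 in wild type, 403 with EGTA and 507 in Cd14-/- cells, than on the other arrays, where it ran from 90.6 to 236. Camp, a neutrophil granule gene, reached 107 in Cd14-/- cells at 24 h, and Dcn, a stromal gene, 192 in wild type and 58.2 with EGTA at 24 h, each being at or next to the floor elsewhere. Gata2, S100a8, Camp and Dcn were also named after their values were seen, and the part of these markers in the result was not tested. Csf1r, the M-CSF receptor, was at 11313, 8355 and 9251 in wild type, at 7245 and 9635 with EGTA and at 11601, 9865 and 11646 in Cd14-/- cells, and did not follow their course. Mrc1, the macrophage mannose receptor, named after its values were seen, was low on the 3 arrays of 24 h, at 1656 in wild type, 1904 with EGTA and 1568 in Cd14-/- cells against 4862 to 7835 on the others.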

How the data were processed

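Total RNA of 8 macrophage cultures, 1 array each, was measured on Affymetrix arrays. The authors deposited linear intensities made with MAS5, per the submitters' processing notes; its version, any scaling to a common target and detection calls are not given in the sources used here. The deposited intensities of 22690 probe sets were quantile normalised over the 8 arrays, raised to a floor at the 40th percentile (38.4), and taken to log2. Of the probe sets, 20393 named 1 gene, 691 several (not used) and 1606 none in the platform annotation, and 20364 matched the RefSeq table of GRCm38.p6 by gene ID. A gene with several probe sets took the one with the highest mean. Genes whose brighter array exceeded 88.2 were compared in a pair, with a 2-fold rule. The additive fit used lmFit and eBayes (limma 3.58.1, R 4.3.3) on genes above 88.2 on some array, with Benjamini-Hochberg adjustment and a threshold of 0.05. Other steps used Python 3.11.15, pandas 2.3.3 and numpy 2.4.6. The procedures were tested on simulated data. The members and gene lists were chosen with earlier results of these data known. All of the genes could be named. Values on all arrays were given for the 3 largest differences per role in wild type at 24 h, for a fixed set (such as Mki67, Top2a and Plk1) and for genes against the majority, and from other lists for the 5 or 3 largest and a fixed set of regulators. The number of arrays limits the precision.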

Additional observations from a re-analysis of the deposited data

Results flagged for a closer look

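Tpx2 moved in opposite directions in the 2 genotypes over 24 h of LPS. Its log2 difference from 0 h was 2.94 in wild type and -1.0 in Cd14-/- cells, so the Cd14-/- difference minus the wild-type difference was -3.94. With 1 array per group this difference between the genotypes was not tested. Both Tpx2 probe sets gave the same directions between 0 h and 24 h. No cause is weighed here.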

How the results depend on the processing

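No result below changed its direction where it had been counted as at least 2-fold or as passing. With the deposited intensities the median log2 differences were -1.98 for wild type at 24 h against 0 h and -1.79 against 6 h, -0.84 for Cd14-/- at 6 h (10 genes at least 2-fold), -0.28 for Cd14-/- against wild type at 24 h (3 genes) and -0.87 for EGTA at 6 h (9 genes), 1 gene was left for Cd14-/- against wild type at 0 h, and the fit called 9 genes at 6 h and 1 for CD14 deficiency. The median over all genes moved with that scaling, for example to -0.66 for wild type at 24 h, so those shifts are shared with the array as a whole. With equal medians, the count at 0 h between genotypes was 1 and the fit called 4 genes at 6 h. With no floor the medians for Cd14-/- at 24 h were -2.86 against 0 h and -2.56 against 6 h. With no filter the median between genotypes at 24 h was -0.29, and the fit called 1 gene at 6 h.

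With the brighter array above the 60th percentile fewer genes were compared. The counts were then 2 for wild type at 6 h, 16 at 24 h, 3 between genotypes at 24 h, 0 for EGTA at 6 h and 17 for EGTA between 6 h and 24 h, and the medians for Cd14-/- at 24 h were -2.81 against 0 h and -2.52 against 6 h. With the mean over probe sets, the counts between genotypes were 1 at 6 h and 3 at 24 h, and that for EGTA at 6 h was 0. A filter on the mean over the 8 arrays, chosen after seeing the data, gave counts of 2 and 18 for wild type at 6 h and 24 h, 1 for Cd14-/- at 6 h and 0 and 1 for EGTA at 6 h and 24 h, and medians for Cd14-/- at 24 h of -2.89 and -2.50. Except where fewer genes were compared, the cause was not tested.

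Leaving out 1 array at a time, the fit called from 0 (without wild type at 6 h) to 10 genes (without Cd14-/- at 24 h) for 6 h, and from 18 (without Cd14-/- at 0 h) to 32 for 24 h. Both condition terms stayed at 0 genes. Without the EGTA arrays it called 1 gene at 6 h, and a mean-variance trend in eBayes moved no count by over 1.5 times. For single genes, the difference moved by at least the gene's residual SD in the additive fit in 199 of 504 gene and comparison pairs with the deposited intensities, 8 with equal medians, 91 with no floor and 77 with the mean over probe sets, and 0 were reversed. No paired analysis was possible because each group has 1 array and the labels carry no replicate numbers. Signal over background limits the 17 genes with a value at the floor.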

Other observations

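Among the other mitosis genes, 1 was at least 2-fold higher after 24 h of LPS in wild type. It was Trip13, an ATPase that recycles the checkpoint protein MAD2, named after its values were seen. Its intensity was 177 before LPS, 297 at 6 h and 406 at 24 h in wild type, 224 and 126 with EGTA, and 267, 647 and 417 in Cd14-/- cells. At 24 h without EGTA it was thus high in both genotypes while the mitosis and spindle genes were low.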
